A study of Mus musculus with 8 samples.

Results

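The natriuretic peptide system was examined in the forming mouse heart, with and without the transcription factor Isl1. The set held 7 genes, taken by their symbols from the 20701 gene symbols of the table: the peptide genes Nppa, Nppb and Nppc, the receptor genes Npr1, Npr2 and Npr3, and Corin. RNA came from pharyngeal mesoderm and hearts dissected from single C57BL/6 mouse embryos at E8.75, the stage of 6 somites. Of these, 4 embryos were wild-type and 4 were Isl1-/- embryos of a knockout line for which no Cre driver is named, so the loss of Isl1 was not limited to the heart. Isl1 is a LIM-homeodomain factor of the second heart field progenitors that are added to the heart tube. Each library held 1 embryo and a mixture of myocardium, endocardium, mesoderm and attached tissues. In such bulk tissue, fewer cells of a type and less RNA per cell cannot be told apart.

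Nppa encodes atrial natriuretic peptide (ANP), Nppb encodes brain natriuretic peptide (BNP) and Nppc encodes C-type natriuretic peptide (CNP). In the embryo, Nppa and Nppb are known as genes of the working chamber myocardium, which switch on where the heart tube balloons into atria and ventricles and stay low in the outflow tract and atrioventricular canal. Corin is a membrane protease of cardiomyocytes that cuts the ANP precursor into its active form. The receptors Npr1 (for ANP and BNP) and Npr2 (for CNP) are guanylyl cyclases that make the messenger cGMP, while Npr3 lacks the cyclase and removes all of these peptides from the extracellular space.

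Nppb and Nppa lie next to each other on chromosome 4, with 13516 bases between them in the mm9 build (NCBIM37, GENCODE vM1). Nppb spans 147359897 to 147361314 and Nppa spans 147374831 to 147376188, both on the plus strand. The RefSeq start of Nppb lies downstream of the GENCODE start, so the end of its window shown here, with all 3 of its marked matches, falls inside that span. The 250 bases upstream of the RefSeq start of each gene are shown because they hold short elements of several factors measured in the same embryos. All 7 genes had a RefSeq promoter entry, and these 2 each had 1 exact match on the plus strand of mm9 chromosome 4, the only chromosome searched. Capitals mark matches, on either strand, to an Nkx2-5 element (TNAAGTG), a T-box element (AGGTGTGA), a GATA element (GATAA) or a TEAD M-CAT element (CATTCC). The coordinates are those of GRCm38.p6, plus strand, 5′ to 3′.
Nppa chr4:148000472-148000721: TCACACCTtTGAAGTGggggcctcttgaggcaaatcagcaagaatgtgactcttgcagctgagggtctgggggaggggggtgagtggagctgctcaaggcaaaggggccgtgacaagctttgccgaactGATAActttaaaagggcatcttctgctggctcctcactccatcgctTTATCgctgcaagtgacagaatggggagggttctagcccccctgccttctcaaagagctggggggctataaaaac
Nppb chr4:147985650-147985899: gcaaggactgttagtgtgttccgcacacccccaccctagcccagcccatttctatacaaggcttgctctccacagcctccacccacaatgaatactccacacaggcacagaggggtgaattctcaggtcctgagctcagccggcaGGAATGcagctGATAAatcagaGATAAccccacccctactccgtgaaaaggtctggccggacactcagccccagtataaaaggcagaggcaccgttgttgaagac

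The Nppa window held 1 T-box match on the minus strand, 1 Nkx2-5 match next to it at the upstream end, and 2 GATA matches. Of the GATA matches, the second was on the minus strand. The Nppb window held 2 GATA matches on the plus strand and 1 M-CAT match on the minus strand. The T-box letters were uncommon, found in 1.12% of 32536 distinct mouse promoter windows of the same length, against 10.0% for the Nkx2-5 letters, 12.6% for the M-CAT letters and 22.5% for the GATA letters. The core letters of an Isl1 element, TAATNG, occurred in 18.4% of windows and in neither of these. Exact letters of a CArG box (CCWWWWWWGG, W for A or T), the element of serum response factor, occurred in 1.48% and in neither of these. The Nppa window held ctttaaaagg, which differs from the CArG letters in 1 base and was not counted as a match. A match of letters is a description of the sequence and does not show that a factor was bound there.

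The libraries held 23480470 to 26153039 counted reads in wild-type and 18916452 to 25047013 in knockout embryos. Isl1 itself was at 9.72, 9.76, 26.9 and 23.3 CPM (counts per 1e6 reads) in the wild-type embryos 1 to 4. It was at 2.32, 2.16, 1.78 and 2.40 CPM in the knockout embryos 1 to 4. The knockout embryos were all below the wild-type embryos, with a fitted log2 difference of -3.00 ± 0.36 (SE; edgeR FDR = 0.0041), as their labels state. Some embryos stood apart from the rest of their group. Wild-type embryo 3 had the lowest levels of cardiomyocyte markers of its group and the lowest score of the 8 embryos for 7 erythroid markers, -1.59 against -0.25 to 1.08. The score for 10 endoderm markers was high in wild-type embryo 3 (0.77) and in knockout embryos 2 and 3 (0.87 and 0.75), and was -0.92 to 0.17 in the 5 others. Afp, a visceral endoderm gene, was at 390 CPM in wild-type embryo 3, 840 and 684 CPM in knockout embryos 2 and 3, and 37.1 to 257 CPM elsewhere. Wild-type embryos 1 and 2 had high levels of immediate early genes, which cells switch on within minutes of a stimulus. Egr1 was at 257 and 283 CPM there and between 5.10 and 31.7 CPM in the 6 other embryos. Values are given with and without these 3 wild-type embryos where leaving them out changed a call. Y-linked reads were present in 1 wild-type and 3 knockout embryos, and knockout embryo 2 alone had total RNA, not polyA RNA, as its molecule label.

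To compare levels between genes, the deposited RPKM values, which divide by transcript length, were used. Nppa had the highest mean in wild-type embryos, 11.1 ± 5.99 RPKM (SD, n = 4), followed by Nppb at 6.20 ± 3.30 RPKM and the clearance receptor Npr3 at 4.04 ± 0.444 RPKM. The cyclase receptor Npr1 was at 1.86 ± 0.840 RPKM, Corin at 1.38 ± 0.402 RPKM and Npr2 at 0.825 ± 0.149 RPKM. Nppc was close to the limit of detection, at 0.122 ± 0.0940 RPKM. In knockout embryos the mean was 4.99 ± 1.55 RPKM for Nppa, 3.98 ± 0.664 RPKM for Npr3 and 3.04 ± 0.520 RPKM for Nppb, so that Npr3 and Nppb changed places. Npr1 (1.85 ± 0.654 RPKM), Corin (1.34 ± 0.171 RPKM), Npr2 (0.828 ± 0.172 RPKM) and Nppc (0.0916 ± 0.0601 RPKM) kept their places in the order.

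**Figure D1:**
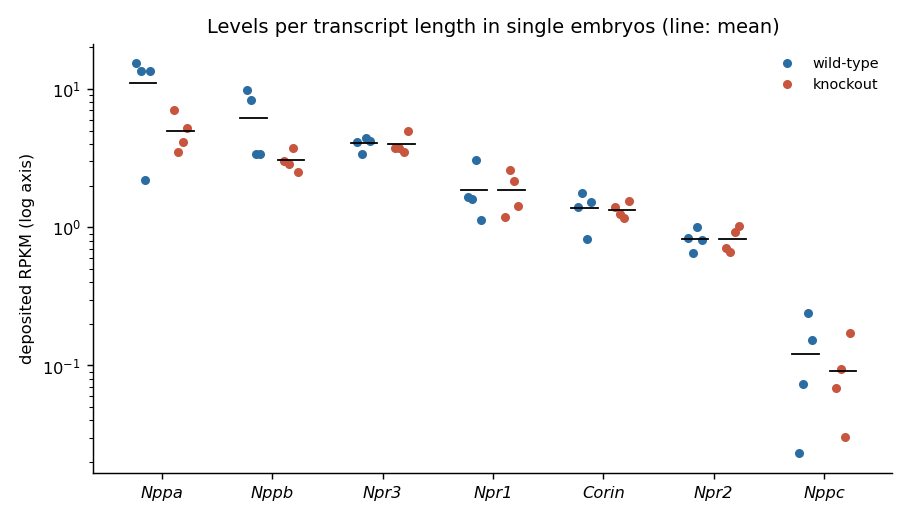
Deposited RPKM of the 7 genes (log axis), with 1 point per embryo, wild-type in blue and knockout in red, and a line at each group mean. Nppa spanned 2.19 to 15.3 RPKM in wild-type embryos, a wider range than any receptor gene, and Nppc lay under 0.25 RPKM in every embryo.

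Among the receptors, the clearance receptor was the most abundant. Npr3 exceeded Npr1 and Npr2 in all 8 embryos, and Npr1 exceeded Npr2 in all 8 embryos. Some neighbours in the order could not be told apart: Nppb exceeded Npr3 in 2 of 4 wild-type and 1 of 4 knockout embryos, and Npr1 exceeded Corin in 2 of 4 embryos of each genotype. Nppa exceeded Nppb in 3 of 4 wild-type and 4 of 4 knockout embryos. The exception was wild-type embryo 3, in which the RPKM ratio of Nppa to Nppb was 0.642, against 1.11 to 3.99 in the other 7 embryos. The RPKM ratio of Nppa to the clearance receptor Npr3 was 3.69, 3.94, 0.492 and 3.22 in the wild-type embryos 1 to 4 and 1.89, 0.941, 1.20 and 1.05 in the knockout embryos 1 to 4. On this scale wild-type embryos 1, 2 and 4 held more ANP transcript per clearance receptor transcript than any knockout embryo, and wild-type embryo 3 held the least of all.

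Whether the genes depended on Isl1 was then tested on the raw counts. Both cardiac peptide genes were lower on average in knockout embryos, Nppa at 43.1% and Nppb at 46.8% of the wild-type mean, while the receptors and Corin stood between 93.4% and 96.6%. With all 8 embryos, 0 of the 6 genes past the filter on low counts passed an FDR of 0.05 (edgeR quasi-likelihood test), where 0.973% of the 14075 genes tested passed. At an unadjusted p under 0.05, Nppa and Nppb passed, 2 of 6 genes, against 17.4% of all genes. The same 2 also passed the thresholds that the study used, a 1.5-fold change with an unadjusted p under 0.05, against 3.93% of all genes, or 2.26% in the lower direction. Nppa lost this call in 6 of 8 fits that each left out 1 embryo (unadjusted edgeR p of 0.0561 to 0.0851), all but those without wild-type embryo 3 or knockout embryo 1. Nppb kept it in all 8 of these fits. With Y-linked reads as a term Nppb lost it, at a log2 fold change of -0.76 (edgeR quasi-likelihood test, unadjusted p = 0.1168). No gene of the set had wild-type and knockout embryos that did not overlap, which 10.3% of all genes did. The fitted difference was below 0 for 6 of 6 genes, with a median log2 fold change of -0.09, against a median of 0.006 over all genes, but for Npr1, Npr2 and Corin the sign changed when single embryos were left out.

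**Figure D2:**
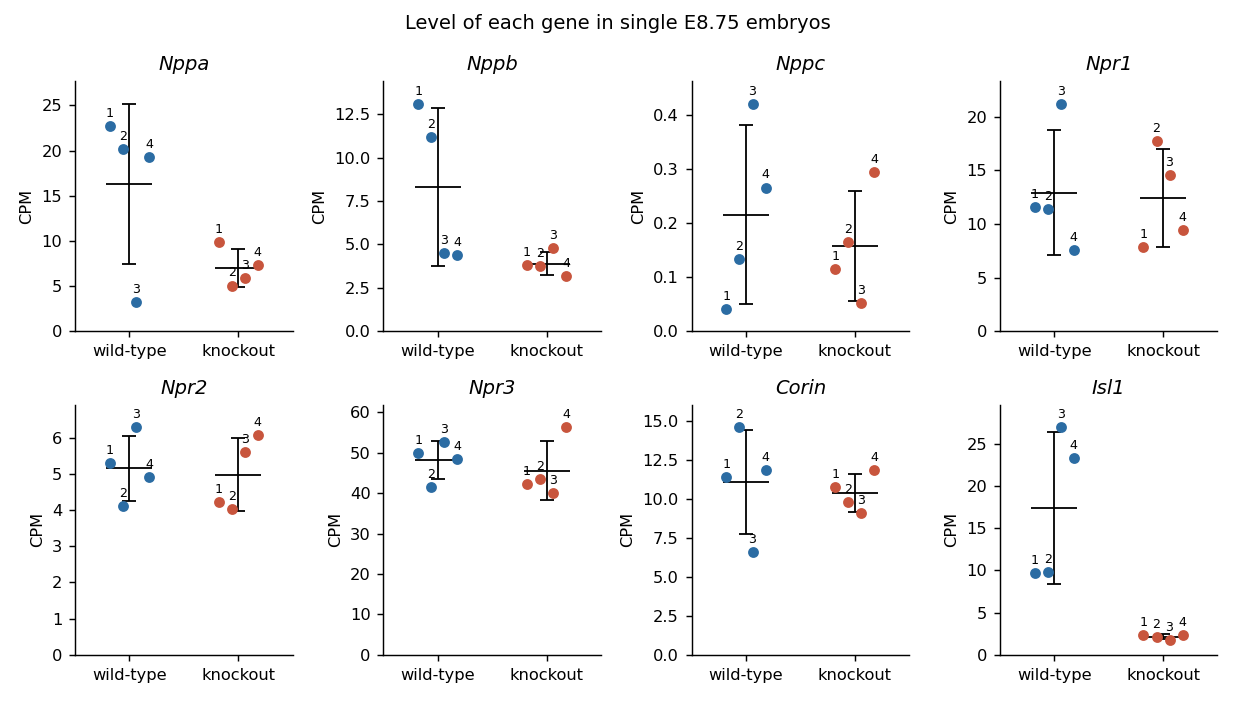
Level of the 7 genes and of Isl1 in CPM, with 1 numbered point per embryo (wild-type blue, knockout red) and the group mean ± SD. For Nppa, 3 wild-type embryos lay above every knockout embryo and wild-type embryo 3 lay below them, while for Nppb wild-type embryos 1 and 2 stood alone.

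Nppa, the ANP gene, was at 22.7, 20.2, 3.20 and 19.3 CPM in the wild-type embryos 1 to 4. In knockout embryos 1 to 4 it was at 9.90, 5.06, 5.91 and 7.29 CPM. Wild-type embryos 1, 2 and 4 lay close together above every knockout embryo, whereas wild-type embryo 3 had the lowest value of the 8. These values rested on 76 reads in wild-type embryo 3, 455 to 545 reads in the other wild-type embryos and 113 to 256 reads in knockout embryos, so the low value was not one of a few reads. Within each genotype the lowest Nppa levels were those of the embryos with high endoderm scores, wild-type embryo 3 and knockout embryos 2 and 3, and the part of that tissue in these levels was not tested. The mean was 16.3 ± 8.89 CPM in wild-type and 7.04 ± 2.12 CPM in knockout embryos (SD, n = 4 each). The log2 fold change was -1.21 ± 0.48 (SE; 95% interval -2.29 to -0.14; unadjusted p = 0.0308; edgeR FDR = 0.2384). An exact permutation test (two-sided) gave p = 0.2, where 4 against 4 embryos cannot go below 0.0286. Without wild-type embryo 3, the log2 fold change was -1.55 ± 0.21 (95% interval -2.02 to -1.09; edgeR FDR = 0.0073). Nppa then passed the threshold, as did 3.46% of the 14179 genes tested without this embryo. This fit is shown because it changed the call, and leaving out the wild-type embryo with the lowest Nppa could only enlarge the fall. In the fits that each left out another single embryo, the edgeR FDR of Nppa was 0.3272 to 0.4881. The reads were counted on both strands, and the antisense gene Gm13054 overlaps Nppa, so reads of the pair could not be separated where exons overlap.

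Nppb, the BNP gene, split the wild-type embryos differently. It was at 13.1, 11.2, 4.51 and 4.37 CPM in the wild-type embryos 1 to 4, against 3.83, 3.73, 4.81 and 3.18 CPM in the knockout embryos 1 to 4. The excess was confined to wild-type embryos 1 and 2, and wild-type embryos 3 and 4 lay within the range of the knockout embryos. The mean was 8.31 ± 4.54 CPM in wild-type and 3.89 ± 0.678 CPM in knockout embryos (SD, n = 4 each). The log2 fold change was -1.10 ± 0.36 (SE; 95% interval -1.90 to -0.29; unadjusted p = 0.0129; edgeR FDR = 0.1746; exact two-sided permutation p = 0.0857). It was -1.30 ± 0.33 without wild-type embryo 3 (edgeR FDR = 0.0635). With DESeq2 in place of edgeR the adjusted p was 0.04, where 5.03% of 14149 genes passed. With wild-type embryos 3 and 4 as the only controls, a comparison chosen after seeing the values, the log2 fold change of Nppb was -0.19 ± 0.21 (95% interval -0.68 to 0.29; edgeR FDR = 0.8179). That of Nppa was -0.68 ± 0.59 (95% interval -2.05 to 0.69; edgeR FDR = 0.7645). In that smaller comparison, 0.153% of 14356 genes passed.

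The gene most like Nppb over the 8 embryos was Egr3, an immediate early transcription factor gene (Pearson r = 0.99 of log2 CPM, across 8 embryos that share their libraries and depth). Egr3 was at 21.4 and 24.7 CPM in wild-type embryos 1 and 2, and between 0.245 and 0.941 CPM in the 6 others. A list of 18 immediate early genes, written after Egr3 had been seen, was then examined. Of these, 16 were higher in wild-type embryos 1 and 2 than in each of the 6 other embryos. The list score, the mean of centred log2 values, was 1.64 and 1.86 in wild-type embryos 1 and 2, -0.63 and -0.12 in wild-type embryos 3 and 4, and -0.95 to -0.10 in knockout embryos. Fos was at 137 and 271 CPM in wild-type embryos 1 and 2 and between 2.07 and 27.2 CPM in the others, while Myc, a member of the list, lay between 53.0 and 73.5 CPM in all 8 embryos. Between genotypes, 15 of the 17 list genes tested were lower in knockout embryos at an unadjusted p under 0.05, where 10.1% of all genes were, and 0 passed the FDR in edgeR. Without wild-type embryo 3, 8 of the 17 passed (3.46% of all genes), at a median log2 fold change of -1.76. Against wild-type embryos 3 and 4 alone, 0 passed (0.153% of all genes), at a median of -0.38. With the list score as a term in the model, the log2 fold change of Nppb was -0.05 (edgeR FDR = 0.9353) and that of Nppa was -0.41 (edgeR FDR = 0.8167). The score and the genotype overlapped in this design, because no knockout embryo had a high score. The list was also reached through Egr3, the gene most like Nppb in these same embryos. A smaller Nppb difference in this fit was therefore built in, and the fit is no test of it.

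**Figure D3:**
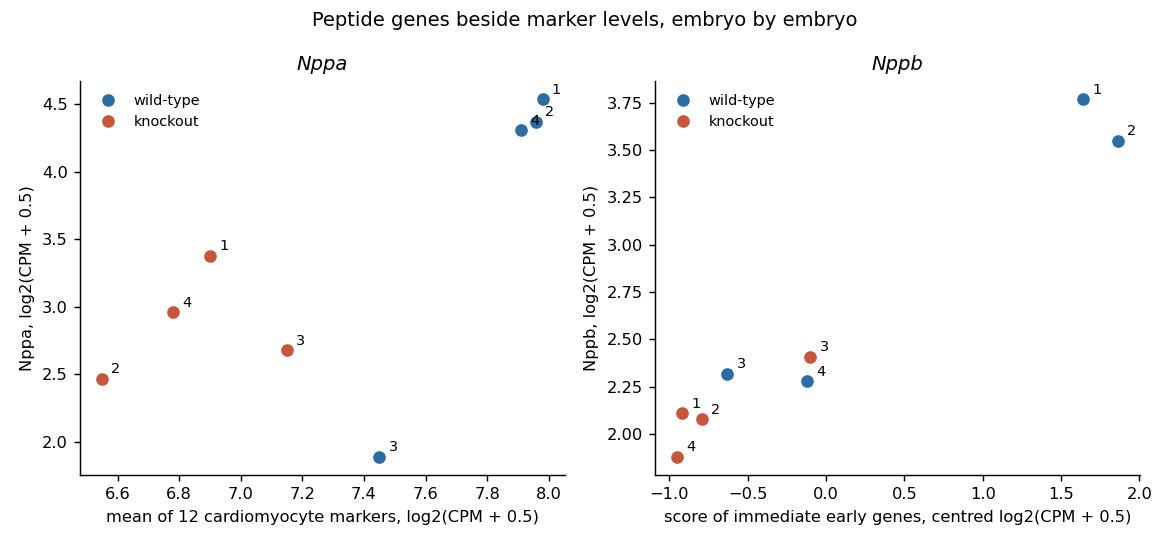
Log2 levels of Nppa against the mean of 12 cardiomyocyte markers (left) and of Nppb against the score of the immediate early genes (right), with 1 numbered point per embryo, wild-type blue and knockout red. Nppb stood high in the 2 wild-type embryos with scores of 1.64 and 1.86, and the other 6 embryos lay between 1.88 and 2.41.

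Nppc, the CNP gene, had 1, 3, 10 and 7 reads in the wild-type embryos 1 to 4, against 3, 4, 1 and 6 reads in the knockout embryos 1 to 4. The limit taken here for a detectable signal was 3 reads, and the groups overlapped. The gene did not pass the filter on low counts. Fitted without the filter, its log2 fold change was -0.44 ± 0.68 (SE; 95% interval -1.95 to 1.06; edgeR FDR = 0.7999), so a difference was not detectable at this depth.

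The ANP and BNP receptor Npr1 (chromosome 3, 90254513 to 90269788, minus strand, mm9) was at 11.6, 11.4, 21.2 and 7.57 CPM in the wild-type embryos 1 to 4. It was at 7.85, 17.7, 14.6 and 9.45 CPM in the knockout embryos 1 to 4. The groups overlapped widely, and the highest value was that of wild-type embryo 3, the embryo with the least Nppa. The 3 highest values, in wild-type embryo 3 and knockout embryos 2 and 3, were those of the 3 embryos with the highest endoderm scores, and the part of that tissue in the Npr1 level was not tested. The log2 fold change was -0.06 ± 0.33 (SE; 95% interval -0.80 to 0.68; edgeR FDR = 0.9378). The sign turned without wild-type embryo 3, at 0.28 ± 0.28. Over the 8 embryos, Pearson's r of log2 CPM between Nppa and Npr1 was -0.683, given as a description of embryos of 2 genotypes.

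The CNP receptor Npr2 (chromosome 4, 43644807 to 43664116, plus strand, mm9) varied little. It was at 5.30, 4.12, 6.28 and 4.90 CPM in the wild-type embryos 1 to 4, against 4.21, 4.02, 5.59 and 6.07 CPM in the knockout embryos 1 to 4, and the groups overlapped. Its log2 fold change was -0.05 ± 0.19 (SE; 95% interval -0.47 to 0.37; edgeR FDR = 0.9057). The span of Npr1 overlaps that of Gm16048 and the span of Npr2 overlaps that of Gm12473. Any reads of these genes on the counted exons would have been counted with them.

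The clearance receptor Npr3 (chromosome 15, 11769651 to 11835429, minus strand, mm9) had the most reads of the set, 764 to 1274 per embryo, and the narrowest interval. It was at 49.8, 41.4, 52.6 and 48.4 CPM in the wild-type embryos 1 to 4, against 42.3, 43.4, 39.9 and 56.2 CPM in the knockout embryos 1 to 4. Both the lowest and the highest of the 8 values belonged to knockout embryos. Its log2 fold change was -0.08 ± 0.12 (SE; 95% interval -0.35 to 0.19; edgeR FDR = 0.7701). The interval thus left out a fall of the size fitted for either cardiac peptide gene. It did overlap the intervals of Nppa (-2.29 to -0.14) and Nppb (-1.90 to -0.29), and a difference between genes was not tested.

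Corin, the protease of the ANP precursor (chromosome 5, 72691264 to 72895779, minus strand, mm9), was at 11.4, 14.6, 6.62 and 11.9 CPM in the wild-type embryos 1 to 4. It was at 10.8, 9.82, 9.10 and 11.9 CPM in the knockout embryos 1 to 4, all within the wild-type range. As for Nppa, the lowest value of the 8 was that of wild-type embryo 3. The log2 fold change was -0.10 ± 0.21 (SE; 95% interval -0.57 to 0.38; edgeR FDR = 0.8449) with all embryos. It was -0.28 ± 0.14 (95% interval -0.59 to 0.03; edgeR FDR = 0.2548) without wild-type embryo 3. With wild-type embryos 3 and 4 as the only controls it was 0.17 ± 0.24.

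**Figure D4:**
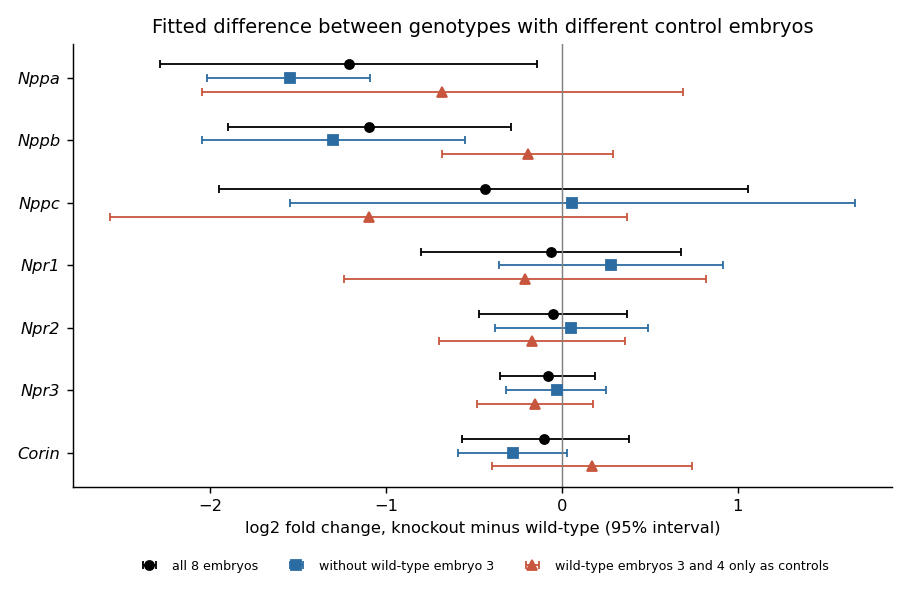
Fitted log2 fold change, knockout minus wild-type, with 95% intervals (x axis) for the 7 genes (y axis), from all 8 embryos (black), without wild-type embryo 3 (blue) and with wild-type embryos 3 and 4 as the only controls (red). The interval of Nppb lay below 0 with all embryos, -1.90 to -0.29, and included 0 with the 2 remaining controls, -0.68 to 0.29.

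The peptide genes were next set beside the markers of heart muscle in each library. None of 12 cardiomyocyte markers was at 0 in an embryo, and their summed level was 3220 to 4780 CPM in wild-type and 1730 to 2610 CPM in knockout embryos. Of the 12 markers, 11 fell in knockout embryos (edgeR FDR under 0.05) and the other, Ttn, had an FDR of 0.0549, with a median log2 fold change of -0.98. By comparison 0.867% of all genes passed in that direction. All 12 passed without wild-type embryo 3 (3.46% of all genes). Against wild-type embryos 3 and 4 alone, 0 passed (0.153% of all genes), while all 12 stayed below 0, at a median of -0.83. The mean log2 level of the 12 markers was 7.98, 7.96, 7.45 and 7.91 in the wild-type embryos 1 to 4 and 6.90, 6.55, 7.15 and 6.78 in the knockout embryos 1 to 4, with no overlap. Relative to this mean, Nppa was at -3.44, -3.59, -5.57 and -3.60 (log2 difference) in the wild-type embryos 1 to 4, against -3.52, -4.07, -4.47 and -3.81 in the knockout embryos 1 to 4. The groups overlapped, and the difference of the means was 0.08 (exact two-sided permutation p = 0.9429). It was -0.42 without wild-type embryo 3 (exact two-sided permutation p = 0.1714). Nppb relative to the same mean differed by 0.12 between genotypes (exact two-sided permutation p = 0.7429).

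Corin gave another picture on this scale. Relative to the cardiomyocyte markers it was at -4.41, -4.04, -4.62 and -4.27 in the wild-type embryos 1 to 4, against -3.40, -3.18, -3.88 and -3.14 in the knockout embryos 1 to 4. Every knockout embryo lay above every wild-type embryo, with a difference of 0.93 (exact two-sided permutation p = 0.0286, the smallest that 4 against 4 allow). This was 1 of 5 such ratios, the p was not adjusted for them, and the test was added after the values had been seen. The ratio combined a Corin level within the wild-type range with markers that fell. The marker mean alone already separated the genotypes with no overlap, so a gene with little change would tend to give such a ratio. The separation was thus largely built in, and this p is no evidence of a change in Corin. For Npr3 and Npr1, the ratio was taken to 10 endocardial and endothelial markers, of which 0 passed the FDR in edgeR and 3 were lower at an unadjusted p under 0.05 (10.1% of all genes), with a median log2 fold change of -0.20 and summed levels of 373 to 473 CPM in wild-type and 297 to 423 CPM in knockout embryos. Of these markers, 2 passed the FDR without wild-type embryo 3 (3.46% of all genes). The differences were 0.24 for Npr3 (exact two-sided permutation p = 0.1714) and 0.29 for Npr1 (exact two-sided permutation p = 0.4857). Lists of endoderm (10), erythroid (7), neural (8) and somite (8) markers had 0 genes past the FDR in edgeR and 0 genes at an unadjusted p under 0.05, and none was absent from all libraries. Summed levels in wild-type and knockout embryos were 348 to 1370 and 307 to 2070 CPM for endoderm, 365 to 2330 and 1240 to 3070 CPM for erythroid, 500 to 554 and 513 to 643 CPM for neural, and 57.2 to 104 and 73.3 to 116 CPM for somite markers. The part of these cell types in the results was not tested.

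Genes that process or clear the peptides, or that carry or end the cGMP signal, were examined as a list of 19, of which 17 passed the filter. Mme fell (edgeR FDR under 0.05, lower in 0.867% of all genes), 0 rose, and the median log2 fold change was -0.21. Mme encodes neprilysin, a membrane protease that degrades natriuretic peptides. It was at 42.5, 49.0, 49.4 and 38.9 CPM in the wild-type embryos 1 to 4, against 24.9, 31.5, 24.5 and 26.8 CPM in the knockout embryos 1 to 4, with no overlap and a log2 fold change of -0.74 ± 0.11 (SE; edgeR FDR = 0.0123). At an unadjusted p under 0.05, 7 of the 17 were lower and 0 higher, where 10.1% of all genes were lower. Other processing and clearance genes did not pass, among them the proprotein convertase genes Furin (log2 fold change -0.21, edgeR FDR = 0.5964) and Pcsk6 (0.18, edgeR FDR = 0.6115), and the insulin-degrading enzyme gene Ide (-0.42, edgeR FDR = 0.4019). Ostn, the gene of a peptide that binds Npr3, had 0 reads in all 8 embryos, which allows at most 3 reads per library. Rgs4, a regulator of G protein signalling named here after its value was seen, had the most negative difference of the list, -1.43 ± 0.28 (edgeR FDR = 0.052). Without wild-type embryo 3, 2 genes of this list passed (3.46% of all genes). Against wild-type embryos 3 and 4 alone, 0 passed (0.153% of all genes), at a median log2 fold change of -0.08.

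The transcription factors known to act on the Nppa promoter were then examined. Of 12 factors, 7 fell in knockout embryos (edgeR FDR under 0.05, lower in 0.867% of all genes), 0 rose, and the median log2 fold change was -0.66. Nkx2-5 and some, but not all, of the T-box factors were among them. Whether any factor acted through the elements shown above was not tested. Tbx5, a T-box activator of chamber genes, fell from 28.5 ± 3.17 to 12.7 ± 1.81 CPM (SD, n = 4 each; log2 fold change -1.17; edgeR FDR = 0.003). Nkx2-5 fell from 25.4 ± 2.97 to 9.58 ± 1.35 CPM (log2 fold change -1.40; edgeR FDR = 0.0019). Tbx20, another T-box factor of the heart, fell by 1.13 on the log2 scale (edgeR FDR = 0.0019). Myocd, the myocardin coactivator of serum response factor, fell by 1.58 on the log2 scale (edgeR FDR = 0.0045), and Mef2c fell by 0.73 (edgeR FDR = 0.0098). Gata6 fell by 0.69 (edgeR FDR = 0.0278) and Hopx, a homeodomain protein that restrains serum response factor, fell by 0.58 (edgeR FDR = 0.0496). Gata4 at -0.63 (edgeR FDR = 0.0532), Srf at -0.51 (edgeR FDR = 0.069) and the chamber repressor genes Tbx2 at -0.23 (edgeR FDR = 0.415) and Tbx3 at -0.60 (edgeR FDR = 0.1836) did not pass. Without wild-type embryo 3, 9 of 12 passed (3.46% of all genes), and with wild-type embryos 3 and 4 as the only controls 3 passed (0.153% of all genes). These factors also mark cardiac cells, whose number was not measured.

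**Figure D5:**
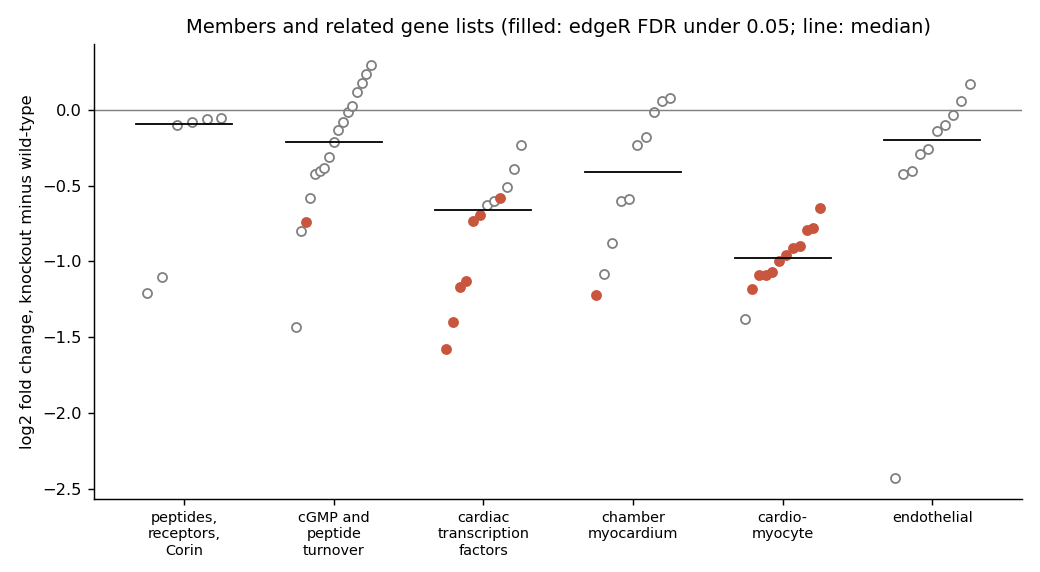
Fitted log2 fold change, knockout minus wild-type (y axis), of the 6 genes of the set past the filter and of the genes of 5 lists (x axis), with 1 point per gene, filled where the edgeR FDR was under 0.05, and a line at the median. The medians were -0.09 for the set, -0.21 for the cGMP and peptide turnover list, -0.66 for the transcription factors, -0.41 for chamber myocardium, -0.98 for cardiomyocyte markers and -0.20 for endothelial markers.

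Nppa and Nppb were also set beside 11 other chamber myocardium genes, of which 10 passed the filter. Smpx, the gene of a small muscle protein, fell from 14.9 ± 3.24 to 6.38 ± 0.892 CPM (SD, n = 4 each; log2 fold change -1.22; edgeR FDR = 0.0113). At an unadjusted p under 0.05, 6 of the 10 were lower, where 10.1% of all genes were, and 0 higher, and the median log2 fold change was -0.41. By sign alone, 8 of the 10 were below 0 and 2 above 0, and the list genes named here were all among the 8. Bmp10, the gene of a growth factor of the trabecular myocardium, had a difference of -1.08 (edgeR FDR = 0.1129). The gap junction genes Gja5 and Gja1 had differences of -0.59 (edgeR FDR = 0.1427) and -0.18 (edgeR FDR = 0.2085), and the ventricular factor gene Irx4 had a difference of -0.60 (edgeR FDR = 0.0621). Without wild-type embryo 3, 4 of 10 passed (3.46% of all genes). Against wild-type embryos 3 and 4 alone, 0 passed (0.153% of all genes), at a median of -0.43.

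Genes around the peptide locus had smaller differences than Nppa and Nppb. Within 100000 bases of Nppa, the log2 fold changes of Mfn2, Plod1, 2510039O18Rik, Clcn6 and Agtrap ranged from -0.14 to 0.23, with 0 past the FDR in edgeR. Agtrap, at 0.23, had an unadjusted p of 0.0383 in the edgeR fit (FDR = 0.2551). Clcn6, the chloride transporter gene next to Nppa, was at 41.0 ± 7.0 CPM in wild-type and 42.6 ± 6.12 CPM in knockout embryos (SD, n = 4 each; log2 fold change 0.06 ± 0.14 SE).

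The genes whose levels over the 8 embryos were most like those of each member were named by Pearson's r of log2 CPM. Nppa was most like Cox6a2, the heart and muscle form of a cytochrome oxidase subunit (r = 0.977), followed by Mtfr1l (0.97) and Stk39 (0.962). After Egr3, Nppb was most like Xrn2 and Sfr1 (both 0.988). Npr3 was most like Slc18a2 (0.981), Erg, an endothelial transcription factor gene (0.951), and 2410089E03Rik (0.946). Npr1 was most like Nt5dc3 (0.986), Polg (0.984) and Slc16a11 (0.983). Npr2 was most like Notch4, a receptor gene of endothelial cells (0.948), Aspg (0.94) and Col2a1 (0.883). Corin was most like Inpp4b and Txnl4b (both 0.961) and Tecrl (0.958). These were the highest 3 values for each member among all genes tested, over 8 points that share their libraries, and are given as a description. Within the set, Nppa and Corin had r = 0.821 and Nppa and Nppb had r = 0.674.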

How the data were processed

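RNA-seq of single embryos (4 wild-type, 4 Isl1-/-) was used. The authors mapped reads to mm9 with STAR and counted them over exons of RefSeq transcripts with HOMER, on both strands, so that the deposited count values were raw counts per transcript entry. RPKM values were computed by the authors with edgeR over all entries, in which reads of shared exons enter more than once. The deposited length column gave transcript length in bases. Versions of the authors' tools are not given in the sources used here. Deposited columns of the authors' DESeq2 comparison (mean, fold change, standard error, statistic and p-values) were not used. In the deposited table, control columns were matched to wild-type embryos by number.

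For each of 20701 symbols (31507 entries), the entry with the highest summed counts was kept. Counts were scaled by TMM and fitted with genotype alone in edgeR 4.0.16 (R 4.3.3; quasi-likelihood F test, filterByExpr, two-sided, Benjamini-Hochberg adjusted over 14075 genes). SE values were derived from the fold change and its F statistic. CPM values are TMM-scaled, with 0.5 added before logs. A marker score is the mean over the list of log2(CPM + 0.5), centred on the 8 embryos. Single ratios were compared by exact two-sided permutation tests. DESeq2 1.42.0 and the settings named in the closing section were alternatives. Plots were drawn with matplotlib 3.10.9 in Python 3.11.15. Intervals cover 95%. Reads carried no molecular identifiers, so the limit of 3 reads covers counting error only.

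The 7 genes and all lists were chosen with earlier results of these data known. Named genes were the members, Isl1, list genes past the FDR with at most 4 others per list in list order, genes within 100000 bases of Nppa (not all are reported here) and, for each member, the 3 most alike genes; the immediate early genes, Rgs4 and Ttn were named after their values were seen. Replicate numbers were not taken to pair embryos, since no label says so. Correlations of the deviations of same-numbered embryos were all positive (0.0577 to 0.543) and did not decide this. A fit with a replicate block is therefore given in the closing section.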

Additional observations from a re-analysis of the deposited data

How the results depend on the processing

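With all embryos no gene of the set passed the FDR in edgeR. The log2 fold change of Nppa stayed below 0 in 16 of 16 alternatives (-1.55 to -0.41; FDR 0.0073 to 0.8167) and passed the FDR once, without wild-type embryo 3 (-1.55; range over single left-out embryos -1.55 to -1.01). That of Nppb stayed below 0 in 16 of 16 (-1.31 to -0.05; FDR 0.04 to 0.9353; single left-out embryos -1.31 to -0.78) and passed once, with DESeq2 (-1.09). Npr3 (-0.22 to -0.02) and Isl1 (-3.72 to -2.72) kept their sign, and Isl1 passed in every one. Members past the FDR numbered 0 to 1 over left-out embryos and 1 with DESeq2, and 2 passed the study's thresholds, which use an unadjusted p. Genes past the FDR, 137 with all embryos, numbered 712 with DESeq2, 76 with a replicate block, 52 with the immediate early score as a term, 22 with wild-type embryos 3 and 4 only, and 70 to 490 over left-out embryos, the highest without wild-type embryo 3; 553 passed the study's thresholds. The settings with the immediate early score and with 2 controls, which has fewer samples, were added after seeing the data. Signs turned for Nppc (0.06 without wild-type embryo 3; left-out embryos -0.89 to 0.06), for Npr1 (0.37 with Y-linked reads as a term; left-out embryos -0.28 to 0.28), for Npr2 (left-out embryos -0.16 to 0.05), and for Corin (0.25 with the immediate early score, 0.17 with wild-type embryos 3 and 4 only; left-out embryos -0.28 to 0.06). The ratio of Nppa to cardiomyocyte markers was -0.47 against the chamber list and -0.42 to 0.28 over left-out embryos. The causes were not tested. Same-numbered embryos had correlations of their deviations of 0.122, 0.199, 0.0577 and 0.543, and 2 of 8 embryos correlated best with their own number. With the replicate block, Nppa was at -1.02 (edgeR FDR = 0.307) and Nppb at -0.96 (edgeR FDR = 0.2443). Depth limited Nppc, at 1 to 10 reads.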

Other observations

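The wild-type embryos with high immediate early genes also differed in Isl1 itself. Isl1 was at 9.72 and 9.76 CPM in wild-type embryos 1 and 2 and at 26.9 and 23.3 CPM in wild-type embryos 3 and 4, and all 4 lay above the knockout embryos. Klf2, a flow-responsive gene of the endothelium and the endothelial marker with the most negative difference between genotypes (log2 fold change -2.43, edgeR FDR = 0.0866), was at 13.1 and 20.1 CPM in the same pair of embryos and between 1.28 and 4.64 CPM in the 6 others. Of the 18 immediate early genes, Ier3 and Myc did not follow the pattern. Ier3 lay between 2.62 and 7.80 CPM in wild-type and between 6.80 and 8.42 CPM in knockout embryos. These genes were chosen after their values had been seen.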
